A study of Mus musculus with 9 samples.

Results

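The genes described here are the subunits of the mTOR complexes and the TSC-Rheb switch that controls them, together with the S6 kinase gene, in N2a cells with lowered Arf1. They are Mtor, Rptor, Mlst8, Rictor, Deptor, Akt1s1, Tsc1, Tsc2, Rheb and Rps6kb1, found by their symbols, and make up 10 of the 21899 genes measured. All 10 passed the filter on low counts, which kept 12448 genes. RNA was sequenced from untreated N2a cells (Neuro-2a, a mouse neuroblastoma line labelled as neuroblasts of the brain) that carried either a luciferase hairpin as control (shlucif) or a hairpin against Arf1 (shArf1-1 or shArf1-2), with 3 libraries per group. The hairpins were listed in a lentiviral vector with puromycin resistance, so that the control cells also carried a vector and a hairpin. The labels do not say whether the 3 libraries of a group came from separate cultures, and p-values then measure the spread between these libraries, which may be technical.

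mTOR is a kinase that works in a pair of complexes. mTORC1, defined by the scaffold Raptor (Rptor), promotes protein and lipid synthesis when nutrients and growth factors are plentiful, whereas mTORC2, defined by Rictor, phosphorylates Akt. The Tsc1-Tsc2 complex turns off the small GTPase Rheb, which activates mTORC1 at the lysosome. Deptor and PRAS40 (Akt1s1) bind mTOR and restrain it, and mutations of the human TSC1 or TSC2 gene cause tuberous sclerosis, a disease of the brain and other organs. Arf1 is a small GTPase of Golgi trafficking. The study asked how Arf1 acts on lipid metabolism, and the comparisons below ask whether the mRNA levels of these regulators differed in Arf1-deficient cells. An mRNA level does not measure kinase activity.

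The hairpin targets are shown because each hairpin's guide strand could also pair through its seed (bases 2 to 8) with other mRNAs, and the capitals mark the letters that pair with the seed.
shArf1-1 target: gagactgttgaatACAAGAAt
shArf1-2 target: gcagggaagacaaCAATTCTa
Neither 21-base target occurred in full in a transcript of any of the 10 genes. The seed letters of shArf1-1 (ACAAGAA) stood in a 3′ UTR of Mtor and of Rps6kb1, against 14.7% of 12359 tested genes with an annotated 3′ UTR. Those of shArf1-2 (CAATTCT) stood in a 3′ UTR of Akt1s1, Rheb and Rps6kb1, against 9.36% of these genes. The matches are printed with the bases around them, again with the seed letters in capitals.
Mtor, shArf1-1 letters: tgacttaacttACAAGAAaactcatcataa
Rps6kb1, shArf1-1 letters: gcaatataaaaACAAGAAtaaaatggcagt
Akt1s1, shArf1-2 letters: cagcaagagaaCAATTCTttccgggattgg
Rheb, shArf1-2 letters: CAATTCTgctgcagagcct
Rps6kb1, shArf1-2 letters: cttatcgtgaaCAATTCTgtagtaaagtca
These are matches of letters only, and whether a hairpin acted through them was not tested. The 2 matches in Rps6kb1 lie in different annotated transcripts.

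The libraries held 11182479 to 15594615 counts. Arf1 was at 316 to 328 FPKM (read counts scaled by gene length and library total) with shlucif, 127 to 130 FPKM with shArf1-1 and 157 to 171 FPKM with shArf1-2 and so was lower in every library labelled as Arf1 knockdown. The cells' identity was checked with marker lists. The 10 neuronal and neuroblastoma markers summed to 867 to 885 FPKM with shlucif, 1241 to 1416 FPKM with shArf1-1 and 1237 to 1321 FPKM with shArf1-2. Tubb3 was the largest part (mean of 410 FPKM with shlucif). Past the threshold given below, 9 of the 10 rose and 1 (Map2) fell, with a median log2 fold change of 0.50. By that threshold, 31.6% of all tested genes were higher and 32.9% lower. The 17 macrophage and microglia markers summed to 161 to 195 FPKM with shlucif, mostly from Lyz2 and Cd68 (means of 63.7 and 55.3 FPKM). They summed to 0.839 to 0.867 FPKM with shArf1-1 and 0.967 to 1.16 FPKM with shArf1-2, where 8 and 9 of them were at 0 in all libraries. Among these, Spi1 had 138 to 162 counts and Itgam 26 to 32 counts with shlucif. Aif1 (2 to 5 counts), Cx3cr1 (1 to 2) and C1qa (0 to 1) were near 0 with shlucif too and were not tested. All 14 tested markers of this list fell. The 5 fibroblast markers summed to 6.09 to 6.49 FPKM with shlucif, 1.41 to 1.63 FPKM with shArf1-1 and 2.72 to 2.97 FPKM with shArf1-2. Pdgfrb made up most of that sum (5.22 FPKM with shlucif), and of the 3 tested, Pdgfrb and Col1a1 fell and Dcn did not pass (log2 fold change 0.45). The 4 astrocyte markers summed to at most 0.701 FPKM and the 3 oligodendrocyte markers to at most 4.84 FPKM in any library. The macrophage and neuronal lists moved with the same groups as every result against shlucif below, and their part in the results was not tested. Between the hairpins, 0 of the 14 tested macrophage markers were called. In that comparison 6 of the 10 neuronal markers were lower with shArf1-2, where 7.46% of all tested genes were lower. Since macrophage transcripts were present in all 3 shlucif libraries and nearly absent from all 6 others, an effect of the Arf1 hairpins and a difference in the cells of the control libraries cannot be told apart in any fold change against shlucif. In bulk RNA, the same holds for fewer cells of a type and less RNA per cell.

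The mTOR pathway genes changed in both directions in Arf1-deficient cells. Comparing the 6 Arf1-deficient with the 3 shlucif libraries, 5 of the 10 genes rose (Mtor, Mlst8, Akt1s1, Tsc2 and Rps6kb1), 3 fell (Rictor, Deptor and Tsc1), and Rptor and Rheb did not pass the threshold, a Benjamini-Hochberg adjusted p under 0.05 in the quasi-likelihood test of edgeR. By the same rule, 64.5% of all tested genes were called, 31.6% higher and 32.9% lower, so that 8 of 10 is to be read against a transcriptome in which most genes were called. The median log2 fold change was 0.15 over the 10 genes and 0.00335 over all tested genes, and the median of its absolute size was 0.49 and 0.37, respectively. For 7 of the 10 genes the Arf1-deficient and shlucif libraries did not overlap in CPM (counts scaled to a common library total after TMM normalization), as for 58.1% of all genes. The fit behind these calls treats the libraries of both hairpins as alike, and its p-values take each library, not each hairpin, as the unit. Of the genes that rose, Rps6kb1 was called with shArf1-1 (log2 fold change 0.43) but not with shArf1-2 (0.08).

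**Figure D1:**
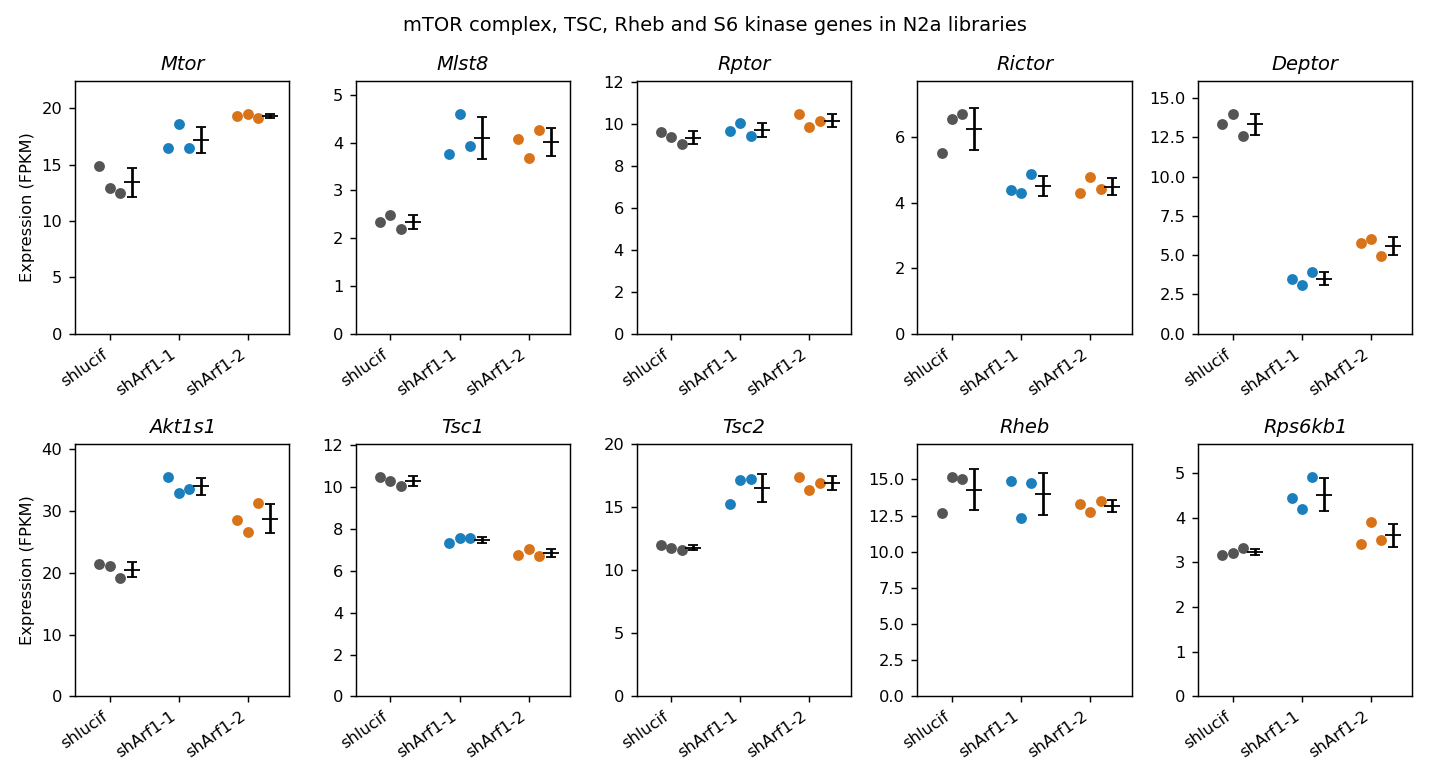
Expression in FPKM (vertical axes, from 0) of each gene in the 9 libraries. Each coloured point is 1 library, and the black marks give the mean and SD of 3 libraries. Deptor, Rictor and Tsc1 lie lower in every Arf1-deficient library than in every shlucif library, Mtor, Mlst8, Akt1s1 and Tsc2 lie higher, and Rptor and Rheb overlap.

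Mtor (chromosome 4, 148448611 to 148557683, plus strand of GRCm38) encodes the kinase shared by both complexes. It was at 14.9, 13.0 and 12.5 FPKM with shlucif, at 16.5, 18.6 and 16.5 FPKM with shArf1-1, and at 19.3, 19.5 and 19.1 FPKM with shArf1-2. Every Arf1-deficient library was above every shlucif library, although the highest shlucif library lay near the lowest shArf1-1 libraries. The log2 fold change was 0.38 (standard error 0.07, edgeR adjusted p = 0.000106), or 1.30-fold. With shArf1-1 the change was 0.30, and with shArf1-2 it was 0.45. The hairpins differed by 0.15 (95% interval 0.03 to 0.28, edgeR adjusted p = 0.1), which gave no call, although it passed without the second shArf1-1 library (edgeR adjusted p = 0.015).

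Mlst8 (chromosome 17, 24473551 to 24479078, minus strand) encodes the other core subunit common to both complexes, which binds the kinase domain. Its levels were 2.34, 2.48 and 2.18 FPKM with shlucif, 3.76, 4.60 and 3.92 FPKM with shArf1-1, and 4.08, 3.68 and 4.27 FPKM with shArf1-2. The Arf1-deficient and shlucif libraries did not overlap, and the 2 hairpins gave like levels. The log2 fold change of 0.73 (standard error 0.11, edgeR adjusted p = 9.67e-06) was the largest rise among the 10 genes, on 132 to 147 counts in shlucif libraries and 209 to 271 counts in Arf1-deficient libraries. Of the exon bases of Mlst8, 22.5% are shared with Bricd5 on the opposite strand, and whether counting used strand is not stated in the sources used here. Bricd5 was not among the tested genes, and its part in the counts of Mlst8 was not tested.

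Rptor (chromosome 11, 119602905 to 119899576, plus strand), the gene of the mTORC1 scaffold Raptor, did not pass the threshold in any comparison. It was at 9.63, 9.41 and 9.05 FPKM with shlucif, 9.68, 10.1 and 9.43 FPKM with shArf1-1, and 10.5, 9.85 and 10.2 FPKM with shArf1-2. All 3 groups lay close together in FPKM, and the log2 fold change was 0.02 (95% interval -0.09 to 0.14, edgeR adjusted p = 0.708). With shArf1-1 alone it was -0.0002, with a sign that turned under several settings, so that no direction can be given.

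Rictor (chromosome 15, 6708379 to 6800401, plus strand), the gene that defines mTORC2, fell. The shlucif libraries stood at 5.53, 6.55 and 6.71 FPKM, the shArf1-1 libraries at 4.38, 4.30 and 4.87 FPKM, and the shArf1-2 libraries at 4.28, 4.79 and 4.41 FPKM. One shlucif library was lower than the other two, but all 6 Arf1-deficient libraries lay below it. Its log2 fold change was -0.54 (standard error 0.07, edgeR adjusted p = 9.52e-07) or 0.689 of the control level, with -0.52 for shArf1-1 and -0.55 for shArf1-2. The difference between the hairpins was -0.03 (95% interval -0.17 to 0.12).

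Deptor (chromosome 15, 55112317 to 55259271, plus strand) encodes the inhibitor that binds mTOR in both complexes, and it changed most of the 10. It was at 13.4, 14.0 and 12.6 FPKM with shlucif, 3.49, 3.12 and 3.92 FPKM with shArf1-1, and 5.80, 6.04 and 4.94 FPKM with shArf1-2. The 3 groups were fully separate, with shArf1-2 in between. Over both hairpins the log2 fold change was -1.61 (standard error 0.19, edgeR adjusted p = 6.59e-05), and 670 of the 12448 tested genes fell more. With shArf1-1 it was -1.97 and with shArf1-2 -1.32, 0.255 and 0.400 of the control level. The hairpins differed by 0.65 (95% interval 0.48 to 0.82, edgeR adjusted p = 1.12e-06). Arf1 itself was higher with shArf1-2 than with shArf1-1 by 0.34 on the log2 scale (edgeR adjusted p = 1.16e-05). Whether these differences are linked was not tested. Akt1s1 and Rps6kb1, also called between the hairpins, changed less with shArf1-2 too. The estimates of Mtor (0.30 with shArf1-1, 0.45 with shArf1-2) and Tsc1 (-0.51 and -0.66) were larger with shArf1-2, without a call for the difference.

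Akt1s1 (chromosome 7, 44848991 to 44855421, plus strand) encodes PRAS40, the mTORC1-bound inhibitor that Akt phosphorylates, and it moved opposite to Deptor. Its levels were 21.4, 21.02 and 19.1 FPKM with shlucif, 35.5, 32.9 and 33.5 FPKM with shArf1-1, and 28.4, 26.5 and 31.3 FPKM with shArf1-2. The 3 groups did not overlap, and shArf1-2 again lay in between. On the log2 scale it rose by 0.55 (standard error 0.09, edgeR adjusted p = 2.18e-05), 0.67 with shArf1-1 and 0.42 with shArf1-2. The difference between the hairpins was -0.26 (95% interval -0.39 to -0.12, edgeR adjusted p = 0.00918), and it was not called without the first shArf1-1 library (edgeR adjusted p = 0.0747) or the second shArf1-2 library (edgeR adjusted p = 0.0987). The seed letters of shArf1-2 printed above stand in the 3′ UTR of Akt1s1, which was lower with that hairpin than with shArf1-1 but above shlucif with both. Whether the hairpin acted through these letters was not tested. Rps6kb1, with seed letters of both hairpins, changed by 0.43 with shArf1-1 and 0.08 with shArf1-2. Mtor, with those of shArf1-1, changed by 0.30 and 0.45, and Rheb, with those of shArf1-2, by -0.08 and -0.19. Neither Mtor nor Rheb was called between the hairpins.

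The partners of the TSC complex moved apart. Tsc1 (chromosome 2, 28641228 to 28691167, plus strand), which encodes hamartin, the stabilising partner, was at 10.5, 10.3 and 10.04 FPKM with shlucif, 7.33, 7.56 and 7.58 FPKM with shArf1-1, and 6.75, 7.07 and 6.71 FPKM with shArf1-2. It fell in all 6 Arf1-deficient libraries, with a log2 fold change of -0.58 (standard error 0.06, edgeR adjusted p = 6.42e-08). Tsc2 (chromosome 17, 24595816 to 24632630, minus strand), which encodes tuberin, the subunit with the GTPase-activating domain, was at 12.0, 11.7 and 11.6 FPKM with shlucif, 15.3, 17.2 and 17.2 FPKM with shArf1-1, and 17.4, 16.4 and 16.9 FPKM with shArf1-2. It rose in all 6, with a log2 fold change of 0.44 (standard error 0.06, edgeR adjusted p = 1.15e-06). Between the hairpins, Tsc1 differed by -0.15 (95% interval -0.27 to -0.03, edgeR adjusted p = 0.0979) and Tsc2 by 0.01 (95% interval -0.10 to 0.13), neither past the threshold. Tsc2 and Mlst8, which both rose, lie on the same strand of chromosome 17 with 116737 bases between them, and 7.20% of the exon bases of Tsc2 are shared with Pkd1 on the opposite strand.

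Rheb (chromosome 5, 24802823 to 24842624, minus strand), the GTPase between TSC and mTORC1, changed little. It was at 12.7, 15.2 and 14.99 FPKM with shlucif, 14.9, 12.3 and 14.8 FPKM with shArf1-1, and 13.3, 12.7 and 13.5 FPKM with shArf1-2. One library of shlucif and one of shArf1-1 lay below the other two of their group, and the ranges overlapped. Its log2 fold change was -0.13 (95% interval -0.28 to 0.02, edgeR adjusted p = 0.114), and it passed the threshold without the first shlucif library (edgeR adjusted p = 0.0281). With shArf1-2 alone it was -0.19 (edgeR adjusted p = 0.0222), a call that was lost with library size scaling (edgeR adjusted p = 0.167) and without replicate 2 or 3 of shlucif or replicate 2 of shArf1-2.

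Rps6kb1 (chromosome 11, 86498871 to 86544805, minus strand) encodes S6 kinase, an mTORC1 substrate that promotes translation. It was at 3.17, 3.21 and 3.31 FPKM with shlucif, 4.44, 4.19 and 4.92 FPKM with shArf1-1, and 3.41, 3.90 and 3.49 FPKM with shArf1-2. The shArf1-1 libraries were above all others, whereas the shArf1-2 libraries lay just above shlucif in FPKM and overlapped it in CPM. The log2 fold change over both hairpins was 0.27 (edgeR adjusted p = 0.0355), but the adjusted p was 0.0605 to 0.104 without any 1 of the shlucif or shArf1-1 libraries. With shArf1-1 it was 0.43 (edgeR adjusted p = 4.61e-05) and with shArf1-2 0.08 (95% interval -0.10 to 0.26, edgeR adjusted p = 0.414). The difference between the hairpins was -0.35 (95% interval -0.52 to -0.17, edgeR adjusted p = 0.00469).

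**Figure D2:**
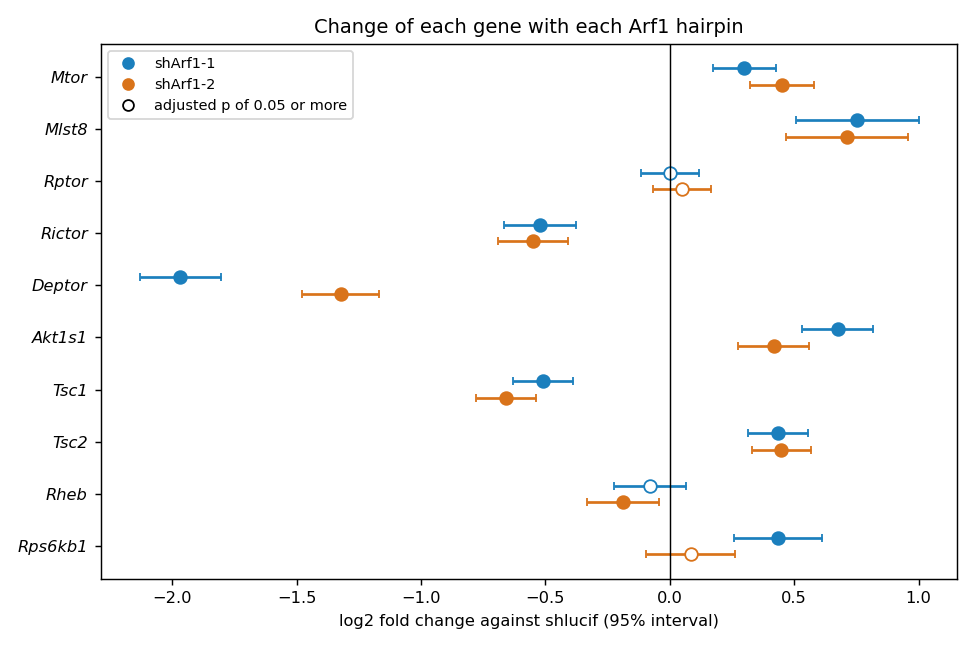
The log2 fold change of each gene against shlucif (horizontal axis) with shArf1-1 (blue) and shArf1-2 (orange), where bars are 95% intervals of the edgeR fit and open circles did not pass the threshold. The widest gap between the hairpins is that of Deptor, at -1.97 and -1.32, and Rps6kb1 passes with shArf1-1 only, where the difference itself was tested and passed.

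Each hairpin against shlucif called 8 of the 10 genes. With shArf1-1, 5 were higher and 3 lower, where 67.5% of all tested genes were called, 33.1% higher and 34.4% lower. With shArf1-2, 4 were higher and 4 lower, where 63.4% of all genes were called, 30.9% higher and 32.6% lower. Both comparisons share the shlucif libraries, so that their likeness is not independent. Between the hairpins, 3 of the 10 genes were called (Deptor higher, Akt1s1 and Rps6kb1 lower with shArf1-2), where 14.4% of all genes were called. The libraries of the 2 hairpins did not overlap in CPM for 5 of the 10 genes (the same 3, Mtor and Tsc1), as for 29.9% of all genes. For the 7 other genes the difference between the hairpins was not called, with log2 estimates between -0.15 for Tsc1 and 0.15 for Mtor. The intervals of Mtor and Tsc1 do not include 0.

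Ratios within a library do not depend on its scaling. The ratio of Rptor to Rictor, the genes that define mTORC1 and mTORC2, was 1.74, 1.44 and 1.35 with shlucif, 2.21, 2.34 and 1.94 with shArf1-1, and 2.45, 2.06 and 2.31 with shArf1-2, on FPKM. It rose 1.47-fold, with no overlap between the Arf1-deficient and shlucif libraries. Of this pair, Rictor fell and Rptor did not pass the threshold. The ratio of Tsc1 to Tsc2 was 0.863 to 0.878 with shlucif, where the libraries lay within a narrow range, 0.440 to 0.480 with shArf1-1 and 0.387 to 0.432 with shArf1-2. Tsc1 was thus at near the level of Tsc2 in control cells and at 0.480 of it or less in every Arf1-deficient library. The ratio of Deptor to Mtor was 0.898 to 1.08 with shlucif, 0.168 to 0.237 with shArf1-1 and 0.258 to 0.310 with shArf1-2, a fall of 2.03 on the log2 scale. For Rptor to Rictor the exact two-sided permutation test over the 9 libraries gave p = 0.0119, also after adjustment over the 3 ratios. It is the smallest the 84 arrangements can give. That outcome followed from levels already printed, since Rictor had separated and Rptor varied little. The arrangements also treat the libraries of both hairpins as alike. For the other ratios the partners had already separated in opposite directions, which fixes the p at this minimum. All 3 ratios are therefore given as a description.

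**Figure D3:**
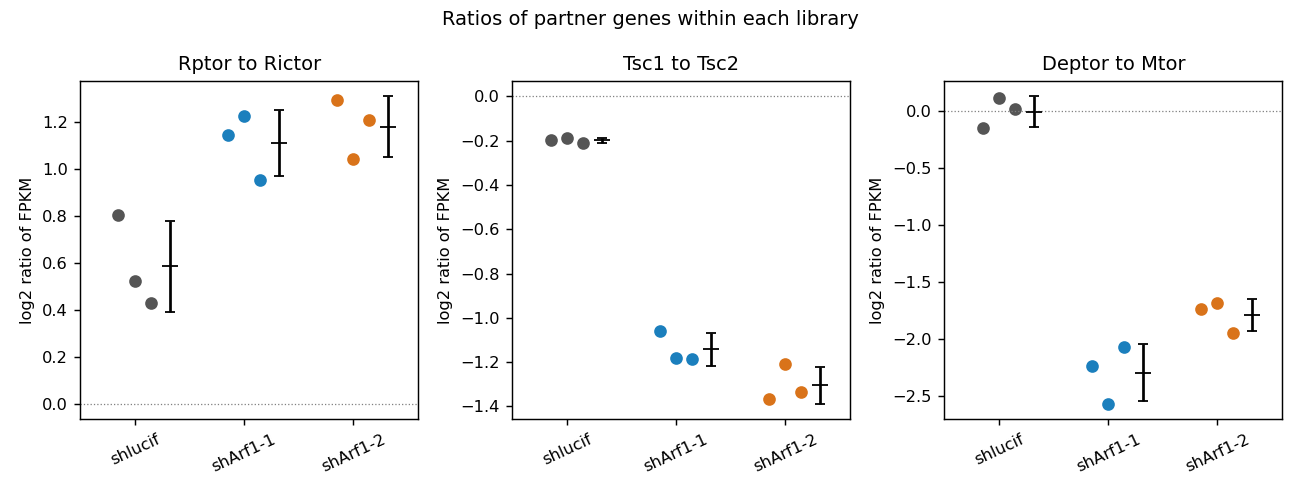
The log2 ratio of FPKM within each library for 3 pairs of partner genes, with 1 point per library and black marks for the mean and SD of 3 libraries. The vertical axes differ between panels and the dotted line marks equal levels. The control and Arf1-deficient libraries are separate in all 3 panels, with Rptor to Rictor higher and Tsc1 to Tsc2 and Deptor to Mtor lower in the latter.

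The order of the levels per length changed mainly through Deptor. In shlucif cells, Akt1s1 was highest (20.5 ± 1.24 FPKM, SD, n = 3), followed by Rheb (14.3 ± 1.40), Mtor (13.4 ± 1.28) and Deptor (13.3 ± 0.692), whose neighbours' ranges overlapped, then Tsc2 (11.8 ± 0.200), Tsc1 (10.3 ± 0.232), Rptor (9.36 ± 0.296), Rictor (6.26 ± 0.641), Rps6kb1 (3.23 ± 0.0751) and Mlst8 (2.33 ± 0.147). With shArf1-1, Deptor was last at 3.51 ± 0.397 FPKM (SD, n = 3), although the ranges of Rps6kb1, Rictor, Mlst8 and Deptor overlapped from neighbour to neighbour. With shArf1-2 it was seventh, at 5.60 ± 0.579 FPKM (SD, n = 3), above Rictor. Akt1s1 was first, followed by Mtor and then Tsc2, with each Arf1 hairpin, and the ranges of Mtor and Tsc2 overlapped with shArf1-1.

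Among 10236 genes with a mean of at least 5 CPM, the genes closest in pattern to Deptor over the 9 libraries were Rras, Megf10 and Slc27a1. Their root mean square differences from Deptor, on log2 CPM centred on the shlucif mean, were 0.138, 0.145 and 0.155. Rras, a Ras-family GTPase, had log2 fold changes of -1.92 and -1.39 with shArf1-1 and shArf1-2. Megf10, an engulfment receptor, had -1.92 and -1.48. Slc27a1, a fatty acid transport protein, had -2.08 and -1.43.

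RefSeq promoters of GRCm38.p6, 250 bases before to 50 after each start, were listed for 9 of the 10 genes, all but Deptor. The promoters of Mtor, which rose, and Rictor, which fell, are printed because they held the most matches among these genes. Capitals mark every match, on either strand, of the GC box (GGGCGG) or the CCAAT box (CCAAT).
Mtor, chr4:148448332-148448631, plus strand: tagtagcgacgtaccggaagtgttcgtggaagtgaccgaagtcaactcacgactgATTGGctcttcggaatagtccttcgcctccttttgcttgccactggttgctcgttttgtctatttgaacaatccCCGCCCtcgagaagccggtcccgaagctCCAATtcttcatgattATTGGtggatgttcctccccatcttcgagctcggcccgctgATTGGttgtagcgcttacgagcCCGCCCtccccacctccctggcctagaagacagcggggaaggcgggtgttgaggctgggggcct
Rictor, chr15:6708131-6708430, plus strand: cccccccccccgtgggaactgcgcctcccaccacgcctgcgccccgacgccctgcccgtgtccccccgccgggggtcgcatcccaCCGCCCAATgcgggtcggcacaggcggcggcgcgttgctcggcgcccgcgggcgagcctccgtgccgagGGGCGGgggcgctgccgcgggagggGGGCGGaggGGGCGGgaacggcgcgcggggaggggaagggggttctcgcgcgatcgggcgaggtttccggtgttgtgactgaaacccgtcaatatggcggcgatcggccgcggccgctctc
The Mtor promoter held 4 CCAAT and 2 GC box matches, and that of Rictor 4 GC box matches and 1 CCAAT match that overlaps one of them. Akt1s1 held 2 GC box matches and Rheb 1 GC box and 1 E-box (CACGTG) match. No match of the 5 motifs searched, which included TATAAA and TGACGTCA, stood in the windows of Rptor, Mlst8, Tsc1, Tsc2 and Rps6kb1. Of all 27025 listed promoters, 35.9% held the GC box, 37.9% CCAAT, 7.24% CACGTG, 14.2% TATAAA and 1.88% TGACGTCA. The GC content was 56.7% for Mtor and 78.3% for Rictor, against a median of 52.7% over all listed promoters. A match of letters is a description and not a site.

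The other genes of the pathway were read from 4 lists by role, and they too changed both ways in the 6 against 3 comparison. Of 7 tested genes for further complex subunits and assembly factors (8 listed), 2 rose, 2 fell and 3 did not pass, with a median log2 fold change of -0.07. This and the counts of the next 3 lists stand against 64.5% of all tested genes called, 31.6% higher and 32.9% lower, and nothing particular to a list is read from them. Tti2, a factor that assembles mTOR-family kinases, had the largest rise, from 3.73 to 4.19 FPKM with shlucif to 4.63 to 5.36 FPKM in Arf1-deficient cells (log2 fold change 0.29, edgeR adjusted p = 0.00452). Rhebl1, the close relative of Rheb, fell from 11.2 to 13.8 FPKM to 5.53 to 7.81 FPKM (log2 fold change -1.03, edgeR adjusted p = 6.52e-08), while Rheb itself did not pass the threshold.

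Of the 29 genes of the Rag GTPases, Ragulator, the GATOR and KICSTOR complexes and the nutrient sensors, which bring amino acid signals to mTORC1, 10 rose, 10 fell and 9 did not pass, where 64.5% of all genes were called (median log2 fold change -0.0039). Itfg2, a KICSTOR subunit, rose most, from 1.78 to 1.87 FPKM to 3.28 to 4.26 FPKM (log2 fold change 1.01, edgeR adjusted p = 8.92e-08). Castor1, the arginine sensor, fell most, from 13.3 to 14.6 FPKM to 1.59 to 4.25 FPKM (log2 fold change -2.23, edgeR adjusted p = 1.62e-07), and it was higher with shArf1-2 than with shArf1-1 by 0.85 on the log2 scale (edgeR adjusted p = 0.00123). Singled out after their values were seen, the folliculin gene Flcn and the genes of its partners Fnip1 and Fnip2 all fell, with log2 fold changes of -1.30, -0.69 and -1.01. The GATOR1 genes, which restrain mTORC1 and were likewise singled out after their values were seen, were split, with Depdc5 at 0.44 and Nprl3 at 0.37 but Nprl2 at -0.50, all past the threshold.

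Of 24 tested genes (26 listed) of the insulin receptor, PI3K, Akt, AMPK and stress inputs, 7 rose, 10 fell and 7 did not pass, where 64.5% of all genes were called (median log2 fold change -0.05). Pik3r3, a regulatory subunit of PI3K, rose from 3.13 to 3.20 FPKM to 5.75 to 8.77 FPKM (log2 fold change 1.27, edgeR adjusted p = 2.03e-08). Pik3r1 and Pik3r2, which encode other regulatory subunits and were chosen after their values were seen, also rose (log2 fold changes 0.41 and 0.65), while of the 4 genes at the receptor end, also chosen after their values were seen, Igf1r, Irs2 and Insr fell (-0.88, -0.67 and -0.36) and Irs1 did not pass (-0.08, edgeR adjusted p = 0.546). Prkaa2, an AMPK catalytic subunit gene, had 101 to 121 counts in shlucif libraries and 0 in all 6 Arf1-deficient libraries, at least 27.3-fold lower against a floor of 3 counts per library (edgeR adjusted p = 2.06e-10). Prkaa1, which encodes the other catalytic subunit and was also chosen after its values were seen, rose by 0.32.

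Of 16 tested genes (17 listed) of mTORC1 substrates and translation, 6 rose, 8 fell and 2 did not pass, where 64.5% of all genes were called, with a median log2 fold change of -0.14. Cad, the pyrimidine synthesis enzyme that S6 kinase phosphorylates, rose from 26.4 to 29.0 FPKM to 42.2 to 51.0 FPKM (log2 fold change 0.65, edgeR adjusted p = 2.46e-08). Lpin1, a phosphatidic acid phosphatase and mTORC1 substrate, fell from 21.4 to 22.2 FPKM to 4.85 to 8.57 FPKM (log2 fold change -1.79, edgeR adjusted p = 4.86e-05). Named after their values were seen, the autophagy genes Ulk1 and Atg13 fell (-0.98 and -0.96), as did Pdcd4, an inhibitor of translation that S6 kinase marks for decay (-1.24). With shArf1-2 against shArf1-1, 4 of the 29 nutrient genes were higher and 2 lower, 3 of the 24 input genes higher and 2 lower, 1 of the 16 substrate genes higher and 2 lower, and 1 of the 7 further subunit genes lower, against 6.98% of all genes higher and 7.46% lower. The substrate genes called there were Lpin1, which fell less with shArf1-2 (difference 0.65), and Ulk1 and Atg13, which fell more (-0.43 and -0.41).

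**Figure D4:**
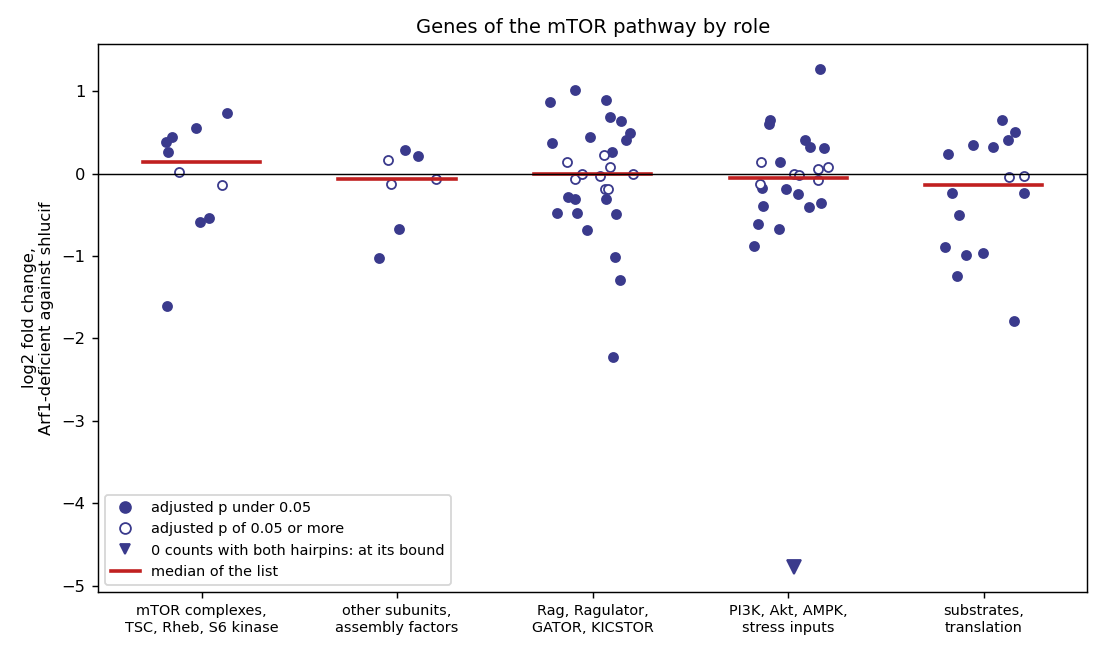
The log2 fold change of each tested gene in Arf1-deficient against shlucif libraries (vertical axis), with 1 point per gene and 1 column per list by role. Filled points passed the threshold, red lines are medians, and the triangle is Prkaa2, drawn at its bound because it had 0 counts with both hairpins. Every list holds genes that rose and genes that fell, and the medians run from -0.14 to 0.15.

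The neuronal markers' median of 0.50 was above the log2 fold changes of Mtor, Tsc2 and Rps6kb1 and below those of Mlst8 and Akt1s1. Their part in the levels of these genes was not tested.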

How the data were processed

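The authors deposited 1 table of whole-number read counts per gene, without normalization, and FPKM values for 9 poly(A)-selected, randomly primed RNA-seq libraries. The FPKM values were recomputed from count, listed gene length and library total and matched within 3.93e-06 percent for values of at least 10 counts. The submitters' processing notes name mm10, and the aligner, counting tool and strand setting are not given in the sources used here. The table's own coordinates, which differ from that build, were not used, and positions are those of GENCODE on GRCm38 by identifier. The deposited columns named shArf2 were taken as shArf1-2 by name, and 8 wrapped annotation lines without values were left out.

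Counts were filtered with filterByExpr, scaled by TMM and tested with glmQLFit (robust) and glmQLFTest in edgeR 4.0.16 (R 4.3.3), in a fit of 2 groups (6 Arf1-deficient and 3 shlucif libraries) and a fit of 3 groups (each hairpin). Calls were at a Benjamini-Hochberg adjusted p under 0.05 over 12448 genes. Standard errors and 95% intervals came from the quasi-likelihood F. Totals of 11182479 to 15594615 counts per library limit the precision together with the spread between libraries. Ratios of FPKM were put through an exact two-sided permutation and are given as a description. Alternatives were DESeq2 1.42.0, other scalings and filters, limma 3.58.1 on log2(FPKM + 1) or log2(FPKM + 0.1), a replicate block, other sets of libraries in the fit, and leaving out each library.

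The genes and lists were chosen with earlier results of these data known. The genes named are the 10 members, Arf1, the gene with the largest rise and the largest fall in each list among those past the threshold without overlap, and the 3 genes closest in pattern to the member that changed most. Genes named after their values were seen are marked as such in the text. Sequences were matched by symbol to RefSeq (promoters, 9 of 10) and GENCODE (3′ UTRs), and hairpin targets were read from the study's list of hairpin sequences.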

Additional observations from a re-analysis of the deposited data

Results flagged for a closer look

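Of the mTOR pathway genes, 3 had effects that differed between the hairpins by the test of the difference itself (edgeR, with p-values adjusted over all tested genes, as shArf1-2 minus shArf1-1 on the log2 scale), where 14.4% of all tested genes were called. Deptor differed by 0.65 (adjusted p = 1.12e-06), falling less with shArf1-2 than with shArf1-1. Akt1s1 differed by -0.26 (adjusted p = 0.00918), rising less with shArf1-2. Rps6kb1 differed by -0.35 (adjusted p = 0.00469), with a call against shlucif for shArf1-1 and none for shArf1-2. In all 3 cases the libraries of the hairpins did not overlap in CPM, as for 29.9% of all genes. Groups of 3 libraries were too small for a check of single samples that lie apart, and no measurement beyond the deposited counts and FPKM was held.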

How the results depend on the processing

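The number of the 10 genes called was 7 or 8 for the 6 against 3 comparison, 8 for shArf1-1, 7 or 8 for shArf1-2 and 2 to 4 between the hairpins over all settings run, and the 3 ratios kept their direction. Their p-values lay at or near the smallest that each number of libraries allows and say nothing about stability. Of the single genes, Rptor with shArf1-1, at -0.0002, turned positive with library size scaling (0.054), no low-count filter (0.0035), limma on log2(FPKM + 1) (0.049) or log2(FPKM + 0.1) (0.054), the replicate block (0.00052) and a fit of only the 6 libraries compared (0.0015), and ran from -0.030 to 0.026 with 1 library left out, without passing the threshold. Between the hairpins, with 1 library left out Tsc2 ranged from -0.040 to 0.044, Mlst8 from -0.094 to 0.048 and Rictor from -0.068 to 0.028, none past the threshold. The number of all genes called between the hairpins was 1798, and 1159 to 1977 with 1 library left out, with 1159 without the first shArf1-1 and 1194 without the first shArf1-2 library. The cause was not tested.

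Same-numbered libraries did not deviate together (correlations of -0.08 to 0.09 over 9 pairs, and 4 of 9 libraries correlated best with their own number). The replicate block gave 7 called genes in the 6 against 3 comparison, where Rps6kb1 had an adjusted p of 0.0573, and 7808 calls over all genes instead of 8027. It changed no other call of the 10 genes. Rheb with shArf1-2 was also not called by limma on log2(FPKM + 1) or log2(FPKM + 0.1) (adjusted p = 0.274 and 0.275). The lowest value of any of the 10 genes was 132 counts in a library, that of Mlst8 with shlucif, and counting error is widest for this gene.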
